A study of Mus musculus with 2 samples.

Results

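The genes described are 10 of MHC class I antigen presentation: the class I heavy chains H2-K1 and H2-D1, their light chain B2m, the peptide transporter and loading genes Tap1, Tap2 and Tapbp, the immunoproteasome genes Psmb8, Psmb9 and Psmb10, and the regulator Nlrc5. They were taken by symbol, whatever their values, and all 10 were found among the 34728 gene entries of the files. They were measured by RNA sequencing in 2 libraries of thioglycollate-elicited peritoneal macrophages from C57BL/6 mice, 1 from animals labelled Kdm2b-/- and 1 from wild-type animals. Per the labels the cells were harvested 4 days after thioglycollate and both libraries had been exposed to bacterial lipopolysaccharide (LPS) at 100 ng/ml, for 3 h by one label and 4 h by another. The labels give neither the age of the animals nor the construction of the Kdm2b allele, and no untreated library was analysed here, so the values are levels under LPS and not responses to it. There was 1 library per group, so no difference could be set against a spread between animals and no test across samples was possible.

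Class I molecules display peptides from the cell's own proteins to CD8+ T cells. Proteasomes cut proteins into peptides, the TAP transporter carries these into the endoplasmic reticulum, and tapasin helps load them onto a heavy chain paired with beta-2 microglobulin. In cells exposed to interferon or other inflammatory signals, 3 catalytic subunits of the constitutive proteasome are replaced by immunoproteasome subunits with other cleavage preferences. NLRC5 acts on a shared promoter module of class I genes and is known as their transactivator, as CIITA is for class II genes.

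All values are FPKM, fragment counts scaled to transcript length and to the size of the library. The length used for each gene is not given, so levels of different genes compare only roughly. Differences are log2 ratios of FPKM + 1, knockout-labelled over wild type. A gene entered the comparison when its mean over both libraries was at least 1 FPKM, which 9039 genes reached, all 10 class I pathway genes among them. Depth was estimated at 26800000 fragments for the knockout-labelled library, against 27200000 for wild type. Counting intervals (95%, Clopper-Pearson) refer to the plain FPKM ratio and cover counting error only. Kdm2b itself was not lower in the knockout-labelled library, with 0.326 FPKM against 0.205 FPKM in wild type, so each direction is that of a labelled library. The median log2 ratio of all genes was 0.10.

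No class I pathway gene differed by 1.5-fold between the libraries. The genes went both ways, also within the class I molecule and within transport and loading. On the FPKM + 1 scale 0 of 10 were at least 1.5-fold apart, against 7.5% of all genes (4.7% higher and 2.8% lower), and 0 were 2-fold apart, against 1.88% (0.863% higher and 1.02% lower). The transporter gene Tap1, the tapasin gene Tapbp, Nlrc5 and both heavy chain genes lay above 0, while B2m, Tap2 and the 3 immunoproteasome genes lay below it. The members had a median log2 ratio of 0.02, with 5 above 0 and 5 below, beside a median of 0.10 over all genes, of which 63.2% lay above 0 and 36.8% below. The counting interval excluded 0 for 9 members, 5 above and 4 below. Of all genes it did so for 63.2%, above 0 for 42.9% and below 0 for 20.3%; abundant genes such as these have narrow intervals.

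**Figure D1:**
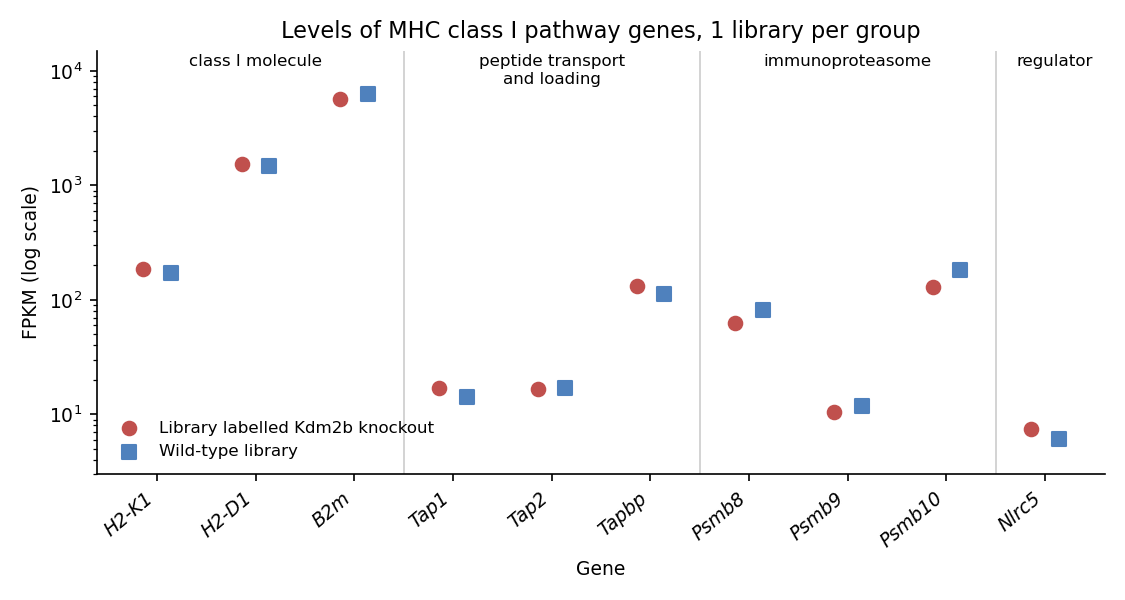
FPKM (log axis) of the 10 genes in the Kdm2b knockout-labelled library (red circles) and in the wild-type library (blue squares), grouped by role, with 1 library per group and no error bars. In both libraries B2m was the most abundant, at 5633 and 6307 FPKM, and Nlrc5 the least, at 7.42 and 6.04 FPKM, and within each gene the pair of points lay close together.

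Within each library B2m and H2-D1 far exceeded the genes that supply peptide, whereas H2-K1 was near the level of Psmb10 and Tapbp. B2m (ENSMUSG00000060802, chromosome 2, 122147686 to 122153083, GRCm38) encodes the invariant light chain that every classical class I heavy chain needs to fold and reach the surface. It stood at 5633 FPKM in the knockout-labelled library, against 6307 FPKM in the wild-type library, ranking 8 and 7 among all genes. Its log2 ratio was -0.16, with a counting interval of -0.17 to -0.15 from an estimated 129825 and 147791 fragments. B2m has 1 annotated transcript and shares no stretch of 50 coding bases with another gene, so its fragments are the best defined of the set. It overlaps Patl2 on the opposite strand, which stood at 0.107 and 0.105 FPKM.

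The heavy chain gene H2-D1 (ENSMUSG00000073411, chromosome 17, 35262730 to 35267499) stood at 1532 FPKM in the knockout-labelled library, against 1473 FPKM in the wild-type library, with a log2 ratio of 0.06 and an interval of 0.04 to 0.07. H2-K1 (ENSMUSG00000061232, chromosome 17, 33996017 to 34000347), which encodes the other classical heavy chain expressed in C57BL/6 mice, stood at 186 and 169.96 FPKM, with a log2 ratio of 0.13 and an interval of 0.09 to 0.17. Both heavy chain genes were thus slightly above 0 and the light chain gene below it. Scaling the libraries to a median of 0 took H2-D1 to -0.07 and H2-K1 to 0.00, and B2m to -0.29. The level of H2-D1 was 8.24 times that of H2-K1 in the knockout-labelled library and 8.67 times in the wild-type library. B2m exceeded the sum of both heavy chains 3.28 times in the knockout-labelled library and 3.84 times in the wild-type library.

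The split between H2-D1 and H2-K1 is uncertain, because class I genes are close copies of each other. The coding sequences of H2-K1 and H2-D1 were 92% identical over 1074 aligned bases. Of all stretches of 50 coding bases, 24.2% of those of H2-D1 and 12.9% of those of H2-K1 also lay in a transcript of another gene, mostly other H2 genes. For stretches of 100 bases these shares were 9.42% and 0%. The sources used here do not give how fragments that fit several genes were assigned.

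The promoters of the class I molecule genes are printed because they hold letters that match motifs of factor families known to act on these genes; a match is a description and not a bound site. Of the 10 genes, 8 had an entry in the RefSeq promoter table (GRCm38.p6); Tap2 and Nlrc5 did not. Each sequence runs over the 250 bases before the RefSeq start, on the gene's own strand. For H2-K1 the more downstream of 2 listed starts was used. Capitals mark matches on either strand to the NF-kappaB consensus, to 2 interferon-response cores (the ISRE core, which is GAAA, any 2 bases and GAAA, and the shorter IRF core GAANNGAAA), to the GAS core TTCNNNGAA, to the CCAAT box and to the CRE half-site TGACG. The regions are chr17:34000334-34000583 for H2-K1 (minus strand), chr17:35262844-35263093 for H2-D1 (plus strand) and chr2:122147437-122147686 for B2m (plus strand).
H2-K1: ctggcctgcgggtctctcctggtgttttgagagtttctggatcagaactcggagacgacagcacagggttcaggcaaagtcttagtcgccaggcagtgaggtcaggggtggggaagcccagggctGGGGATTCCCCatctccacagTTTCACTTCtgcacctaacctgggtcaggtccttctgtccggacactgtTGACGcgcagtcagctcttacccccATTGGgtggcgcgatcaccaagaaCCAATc
H2-D1: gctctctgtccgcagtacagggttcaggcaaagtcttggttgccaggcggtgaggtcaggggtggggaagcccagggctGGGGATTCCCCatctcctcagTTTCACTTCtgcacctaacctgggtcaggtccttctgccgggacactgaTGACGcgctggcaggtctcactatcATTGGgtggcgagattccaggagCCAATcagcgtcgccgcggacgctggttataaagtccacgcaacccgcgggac
B2m: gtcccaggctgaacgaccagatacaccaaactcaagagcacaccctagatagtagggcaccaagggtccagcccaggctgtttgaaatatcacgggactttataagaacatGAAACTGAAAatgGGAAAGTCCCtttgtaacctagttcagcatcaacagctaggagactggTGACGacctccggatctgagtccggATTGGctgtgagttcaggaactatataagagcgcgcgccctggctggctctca
In both heavy chain promoters the first capitals are the NF-kappaB consensus and the next an interferon-response core. They begin 125 and 104 bases before the start in H2-K1, and 171 and 150 bases before it in H2-D1. B2m has the interferon-response core first, 139 bases before its start, and the NF-kappaB consensus 126 bases before it. A CRE half-site and at least 1 CCAAT box follow in all 3 promoters. The windows of H2-K1 and H2-D1 were 88.7% identical over 203 aligned bases, with an unbroken run of 47 identical bases.

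These letters are not rare in promoters. The NF-kappaB consensus was found in 3 of the 8 members' promoters (B2m, H2-D1 and H2-K1) and in 8.46% of all 32851 windows in the table, which also take in the 50 bases after the start. The ISRE core was found in B2m alone among the members and in 3.44% of all windows. GAANNGAAA, a core searched after the promoters were seen, was found in H2-K1 and H2-D1 and in 7.52% of windows. The GAS core was found in Psmb8 alone and in 8.3% of windows. CCAAT was in 6 of the 8 and in 37.4% of windows, and TGACG in 5 of the 8 and in 20.8%. The marked sites of a promoter do not overlap each other, apart from the NF-kappaB site of the heavy chains, where 2 matches shifted by a base overlap.

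Of the genes of peptide transport and loading, Tap1 and Tapbp were higher in the knockout-labelled library and Tap2 was level. Tap1 (ENSMUSG00000037321, chromosome 17, 34187553 to 34197225) encodes a chain of the peptide transporter and stood at 17.002 FPKM in the knockout-labelled library, against 14.3 FPKM in the wild-type library, a log2 ratio of 0.24 with an interval of 0.15 to 0.35. Tap2 (ENSMUSG00000024339, chromosome 17, 34203527 to 34216321), the other chain of the heterodimer, stood at 16.76 and 16.95 FPKM, a log2 ratio of -0.02 whose interval of -0.12 to 0.09 held 0. No difference was detectable for Tap2 at this depth on FPKM as deposited, by counting error alone. Its log2 ratio depended on the setting, from -0.25 with the trend in length and GC content removed to 0.07 with equal FPKM totals. The chains of the transporter were at like levels, with a Tap1 to Tap2 ratio of 1.01 in the knockout-labelled library and 0.843 in the wild-type library.

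Tapbp (ENSMUSG00000024308, chromosome 17, 33915899 to 33929292) encodes tapasin, which bridges the transporter and the empty class I molecule. It stood at 132 FPKM in the knockout-labelled library, against 112 FPKM in the wild-type library, with a log2 ratio of 0.24 and an interval of 0.20 to 0.28. Its level was 7.79 times that of Tap1 in the knockout-labelled library and 7.83 times in the wild-type library. The gene overlaps Zbtb22 on the same strand, at 9.32 and 7.89 FPKM, and is uncertain by the fragments they share. Tap1 and Tapbp kept a log2 ratio above 0 under all 10 alternative settings, down to 0.02 and 0.04 with the trend in length and GC content removed.

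The 3 immunoproteasome genes were all lower in the knockout-labelled library. Psmb10 (ENSMUSG00000031897, chromosome 8, 105935735 to 105938444), the immunoproteasome's beta2i subunit with trypsin-like activity, had the lowest ratio of the 10 genes. It stood at 131 FPKM in the knockout-labelled library, against 183 FPKM in the wild-type library, a log2 ratio of -0.48 with an interval of -0.54 to -0.43. Of all genes past the floor 4.18% had a lower log2 ratio, and of those in its own length class (1200 to 1468 bases) 8.87%. Psmb8 (ENSMUSG00000024338, chromosome 17, 34197721 to 34201454), the beta5i subunit with chymotrypsin-like activity, stood at 63.4 and 81.9 FPKM, a log2 ratio of -0.36 with an interval of -0.44 to -0.30. Psmb9 (ENSMUSG00000096727, chromosome 17, 34181987 to 34187764), the beta1i subunit, stood at 10.4 and 11.9 FPKM, a log2 ratio of -0.18 with an interval of -0.33 to -0.06. Psmb9 had the lowest FPKM of them: the level of Psmb10 was 12.6 times that of Psmb9 in the knockout-labelled library and 15.3 times in the wild-type library. This gap depends on the transcript length behind each FPKM, which is not known here. The longest and the median annotated transcript have 2884 and 783 bases for Psmb9, and 1311 and 788 for Psmb10.

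**Figure D2:**
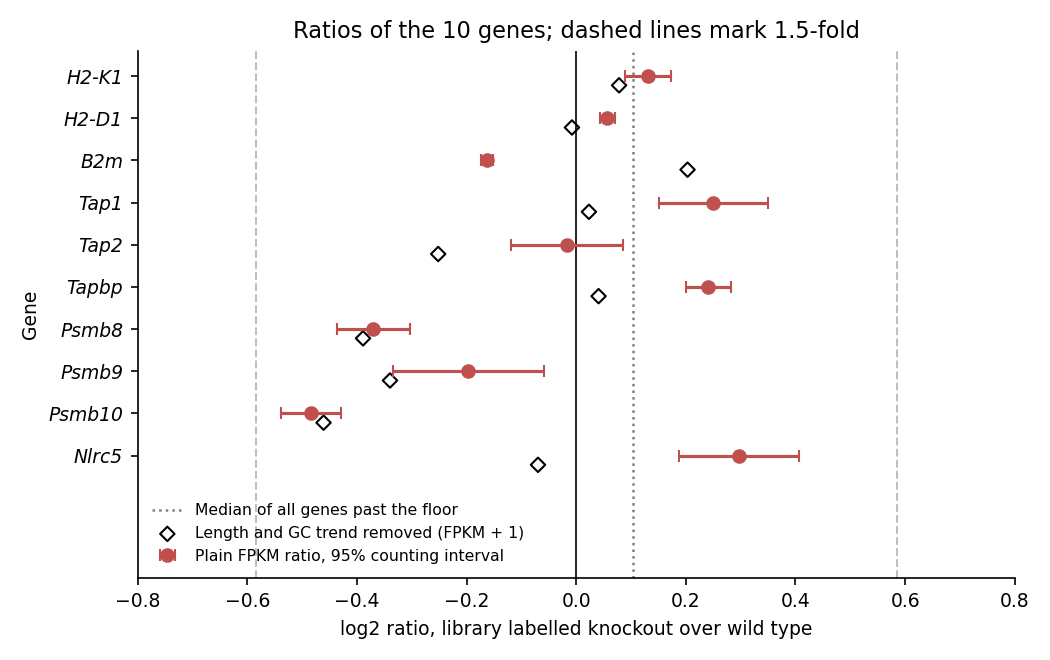
Log2 ratios of the knockout-labelled library over the wild-type library for the 10 genes: red points are plain FPKM ratios with 95% counting intervals, and open diamonds the ratios on FPKM + 1 with the trend in length and GC content removed. The solid line is 0, the dotted line the median of all genes (0.10) and the dashed lines 1.5-fold; every point lay inside the dashed lines, and Psmb8, Psmb9 and Psmb10 were below 0 both ways.

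The constitutive subunits that these genes replace were also lower in the knockout-labelled library, which sets the scale for the immunoproteasome. Psmb5, the beta5 subunit, stood at 112 FPKM in the knockout-labelled library, against 128 FPKM in the wild-type library (a log2 ratio of -0.19). Psmb6, the beta1 subunit, stood at 148 and 171 FPKM (-0.20), and Psmb7, the beta2 subunit, at 37.3 and 44.1 FPKM (-0.24). Of the 11 other subunit genes of the 20S core, 11 were below 0 (median -0.23), against 36.8% of all genes, and 0 were 1.5-fold apart, against 7.5%. The lowest were Psma2 at 195 and 257 FPKM (-0.40), Psma5 at 28.5 and 37.1 FPKM (-0.37), Psmb2 at 56.1 and 70.3 FPKM (-0.32) and Psma4 at 44.2 and 53.8 FPKM (-0.28). With the trend in length and GC content removed, 9 of these 11 were below 0 and 2 above (median -0.15). The 3 constitutive catalytic subunits stayed below 0 with it removed (median -0.09, and -0.20 before removal). The median of the 3 immunoproteasome genes was -0.39 with the trend removed and -0.36 before removal. Psmb5 is uncertain, since 64.9% of its stretches of 50 coding bases also lie in another annotated transcript, Gm3375 foremost.

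Immunoproteasome genes held 40.7% of the summed FPKM of the 6 catalytic subunits in the knockout-labelled library (counting interval 39.95 to 41.4%) and 44.6% in the wild-type library (43.97 to 45.3%). The pairs differed widely from each other in both libraries. The size of each share depends on the transcript lengths behind the FPKM, which the counting intervals do not cover. The longest and the median annotated transcript have 2884 and 783 bases for Psmb9, against 966 and 736 for Psmb6. Psmb10 held 77.8% of the Psmb10 and Psmb7 sum in the knockout-labelled library and 80.6% in the wild-type library. Psmb8 held 36.1% and 39.0% of the sum with Psmb5, and Psmb9 6.55% and 6.52% of the sum with Psmb6. The share was thus lower in the knockout-labelled library for the Psmb10 and Psmb8 pairs, with counting intervals that did not meet. For the Psmb9 pair it was the same within counting error. These shares use FPKM without the trend in length and GC content removed. With the trend removed, the log2 ratios of Psmb9 and Psmb6 were -0.34 and -0.02. By median transcript length they were -0.27 and -0.25, so the difference within this pair depends on the length used.

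**Figure D3:**
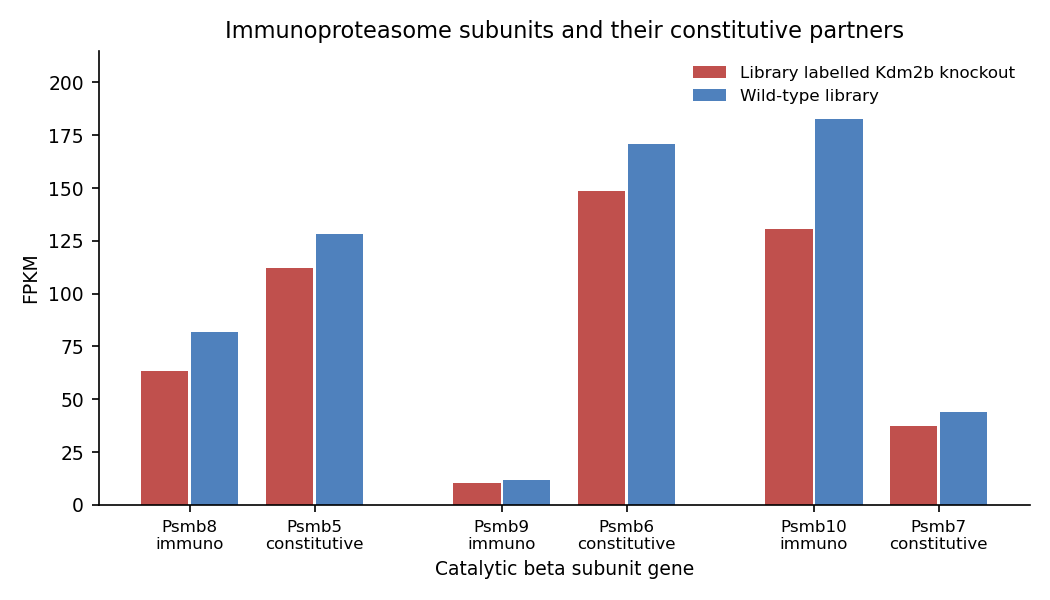
FPKM of the immunoproteasome subunit genes, each beside the constitutive subunit gene it replaces, in the Kdm2b knockout-labelled library (red) and the wild-type library (blue), with 1 library per group and no error bars. All 6 genes had the lower bar in the knockout-labelled library; Psmb10 stood above its partner Psmb7 in both libraries, whereas Psmb8 and Psmb9 stood below Psmb5 and Psmb6.

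Psmb9, Tap1, Psmb8 and Tap2 lie side by side within 34.3 kb of the class II region of chromosome 17, and these 4 genes did not share a ratio. Going along the chromosome the log2 ratios were -0.18 for Psmb9, 0.24 for Tap1, -0.36 for Psmb8 and -0.02 for Tap2. The other annotated genes in this stretch, Gm20496 and Gm15821, were listed at 0 in both libraries. H2-Ab1, a class II gene next on the Tap2 side that was past the floor, stood at 16.9 FPKM in the knockout-labelled library, against 28.3 FPKM in the wild-type library (-0.71). The class II genes beyond it were lower still in the knockout-labelled library, H2-Aa at 14.1 and 32.1 FPKM (-1.13) and H2-Eb1 at 14.7 and 44.6 FPKM (-1.54). On the heavy chain side, Ring1, a Polycomb subunit gene that lies 20.44 kb from H2-K1, stood at 2.61 and 1.75 FPKM (0.40). Other genes past the floor between Tapbp and Psmb9 went both ways. They ran from H2-Ke6 (4.77 and 5.90 FPKM, -0.26) to Vps52 (5.24 and 3.59 FPKM, 0.44).

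Psmb9 and Tap1 point away from each other and share the stretch between their starts, which is why it is printed. Their RefSeq starts lie 225 bases apart (chr17:34187331-34187555, GRCm38.p6), written here on the plus strand, the strand of Tap1, with the same capitals as above.
Psmb9 and Tap1: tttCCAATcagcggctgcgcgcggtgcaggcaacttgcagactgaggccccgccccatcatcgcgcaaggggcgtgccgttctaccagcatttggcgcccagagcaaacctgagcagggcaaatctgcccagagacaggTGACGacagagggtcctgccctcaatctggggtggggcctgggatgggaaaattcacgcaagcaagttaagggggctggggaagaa
The stretch held a CCAAT box next to the Psmb9 start and a CRE half-site that ends 81 bases before the Tap1 start, and no match to the interferon, GAS or NF-kappaB letters. Tap1 was 1.635 times the level of Psmb9 in the knockout-labelled library and 1.199 times in the wild-type library. These are levels of whole genes, not of transcripts begun at this stretch, and the transcript length behind each FPKM is not known. In GENCODE the annotated genes of the pair overlap by 212 bases on opposite strands, and the protocol describes no strand marking, so reads from that overlap could not be told apart.

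Nlrc5 (ENSMUSG00000074151, chromosome 8, 94434356 to 94527272) stood at 7.42 FPKM in the knockout-labelled library, against 6.04 FPKM in the wild-type library, a log2 ratio of 0.26 with an interval of 0.19 to 0.41. It had the highest ratio of the 10 genes and the lowest level. Of the genes whose longest transcript was in the same length class (7554 bases and longer), 42.1% had a lower ratio and the median was 0.29. Of 17 listed factors of the class I promoter module and of interferon and NF-kappaB signalling, 15 passed the floor. Of these 15, 12 were above 0 (median 0.09, but -0.026 with the libraries scaled to a median of 0), against 63.2% of all genes. None of the 15 was 1.5-fold apart, against 7.5% of all genes. Their largest ratios were those of the NF-kappaB subunits Nfkb1 (26.6 and 18.1 FPKM, 0.53) and Rela (48.7 and 38.4 FPKM, 0.34), of Irf8 (16.4 and 19.9 FPKM, -0.27) and of Atf1, which binds CRE sites (7.56 and 6.18 FPKM, 0.25). Below the floor, Ciita stood at 1.36 and 0.537 FPKM, a plain log2 ratio of 1.34 with a counting interval of 0.97 to 1.71. Rfx5, also below the floor, stood at 1.09 and 0.80 FPKM (plain log2 ratio 0.45, interval 0.06 to 0.84). Irf1, an inducer of class I and immunoproteasome genes, was close in both libraries at 119 and 109 FPKM (0.12).

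Among interferon receptors, their kinases and ligands, 8 of 9 listed genes passed the floor, 6 above 0 and 2 below (median 0.17). Of all genes 63.2% were above 0 and 36.8% below. The 2 listed genes below 0 were the ligand gene Ifnb1 (23.1 and 33.8 FPKM, -0.53) and Ifngr1, a chain of the interferon-gamma receptor (12.005 and 17.95 FPKM, -0.54). With the trend in length and GC content removed, Ifnb1 stood at -0.20 and Ifngr1 at -0.54. By median transcript length they stood at -0.52 and -0.585. The kinase genes Tyk2 (7.45 and 5.61 FPKM, 0.35) and Jak2 (105 and 88.9 FPKM, 0.23) had the highest ratios. Ifng was at 0.0309 FPKM in the knockout-labelled library and listed at 0 for wild type.

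Other class I and class I-like genes lay on both sides of 0. Of 15 listed, 13 passed the floor, 4 above 0 and 9 below, where 36.8% of all genes lay below 0. Their median was -0.05, or -0.16 with the libraries scaled to a median of 0 and 0.020 with equal FPKM totals. Against 7.5% of all genes, 1 of the 13 was at least 1.5-fold apart. That gene was H2-M2, a nonclassical class I gene, at 9.38 FPKM in the knockout-labelled library, against 24.6 FPKM in the wild-type library (a log2 ratio of -1.30, interval -1.56 to -1.22). H2-T23, the heavy chain of the Qa-1 molecule, stood at 89.6 and 119 FPKM (-0.41), and H2-M3, which presents formylated peptides, at 36.1 and 47.6 FPKM (-0.39). H2-Q6, of the Qa-2 group, went the other way at 33.3 and 24.4 FPKM (0.44). H2-Q6 and H2-T23 are uncertain for the reason given for H2-D1, with 36.9% and 29.6% of their stretches of 50 coding bases found in another gene.

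Genes that work beside the members were mixed. Of 11 genes of loading, trimming and chaperoning, 8 were above 0 (median 0.12), against 63.2% of all genes (median 0.10). Past 1.5-fold, where 7.5% of all genes lay, was 1 of them, the chaperone Hspa5, at 73.7 and 113 FPKM (-0.61). The peptidase gene Lnpep stood at 18.5 and 13.4 FPKM (0.44), and the translocon genes Sec61a1 at 13.0 and 9.42 FPKM (0.42) and Sec61b at 34.6 and 43.1 FPKM (-0.31). The trimming peptidase gene Erap1 stood at 25.3 and 22.5 FPKM (0.16). Of 9 proteasome activator and assembly genes, 5 were above 0 and 4 below, against 63.2% and 36.8% of all genes. Their median was 0.01, but -0.21 with a floor of 5 FPKM and -0.095 with the libraries scaled to a median of 0. The 4 below included the assembly chaperone genes Psmg4 (14.1 and 23.8 FPKM, -0.72) and Pomp (15.3 and 23.01 FPKM, -0.56). The others were both subunits of the interferon-inducible PA28 activator, Psme1 (20.1 and 24.8 FPKM, -0.29) and Psme2 (33.0 and 38.5 FPKM, -0.21). With the trend in length and GC content removed, 3 of the 9 were above 0 and 6 below. Psme1 then stood at -0.39 and Psme2 at -0.05, or at -0.42 and -0.25 by median transcript length.

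The ratios moved with transcript length over all genes, while members of like length could differ. The median log2 ratio was -0.23 in the shortest of 10 equal classes by length (132 to 1200 bases) and 0.29 at the long end (6249 to 123179 bases). The longest annotated transcript was 860 bases for B2m and 1311 for Psmb10, which had ratios below 0, and 3911 for Tap1 and 7578 for Nlrc5, which had ratios above 0. H2-K1 (1874 bases, 0.13) and Psmb8 (1907 bases, -0.36) were alike in length and lay on opposite sides of 0, as did Tapbp (2898 bases, 0.24) and Psmb9 (2884 bases, -0.18). H2-D1 had 2102 bases and Tap2 3442. With the trend in length and GC content removed, Psmb10 stood at -0.46, Psmb8 at -0.39 and Psmb9 at -0.34, about as low as without it or lower. Tap1 (0.02), Tapbp (0.04) and H2-K1 (0.08) came close to 0, while Nlrc5 (-0.07), H2-D1 (-0.01) and B2m (0.20) changed side and Tap2 stood at -0.25. With each gene's median transcript length in place of the longest, B2m stood at -0.17 and Nlrc5 at 0.13. B2m has the same length of 860 bases either way, so its move came from the trend fitted over the other genes. The median of the constitutive catalytic subunits was -0.09 with the longest transcript and -0.28 with the median one.

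**Figure D4:**
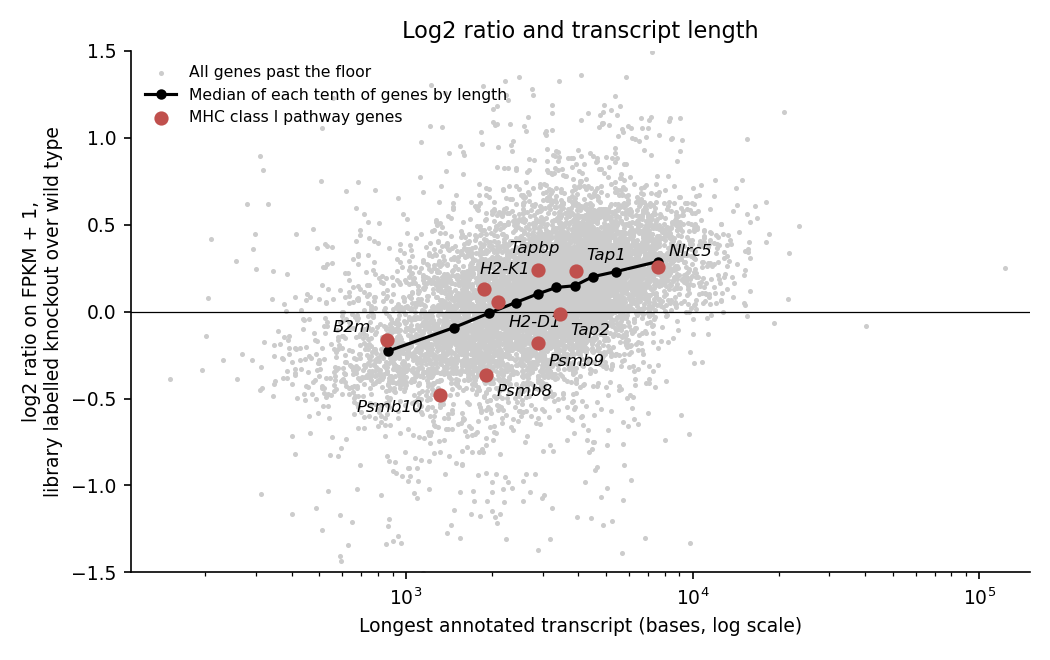
Log2 ratio on FPKM + 1 of the knockout-labelled library over the wild-type library against the longest annotated transcript (log axis), for genes past the floor with an annotated length (grey; 49 genes beyond 1.5 either way are not shown) and the 10 class I pathway genes (red). The black line joins the medians of 10 classes of genes by length, from -0.23 to 0.29. Psmb8, Psmb9, Psmb10 and Tap2 lay below it, and Nlrc5 (0.26) was just under the median at its long end.

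Macrophage markers were abundant in both libraries, with all 8 of 8 past the floor and a summed level of 14208 FPKM in the knockout-labelled library, against 11923 FPKM in the wild-type library. Lyz2 carried that sum at 11409 and 8945 FPKM, and the other 7 markers summed to 2799 and 2978 FPKM. Other cells also carry class I molecules, so their markers are given here. The 6 B cell markers summed to 2.86 and 27.3 FPKM. The 8 T and NK cell markers summed to 0.136 and 0.193 FPKM, with 6 at 0 in both libraries, Cd3e and Cd8a among them. The 6 dendritic cell markers summed to 1.05 and 0.911 FPKM, with Xcr1 and Clec9a at 0 in both, and the 6 neutrophil markers to 15.1 and 14.3 FPKM, nearly all of it S100a8, while Retnlg, Ly6g and Mpo were at 0 in either library. The 5 eosinophil and mast cell markers summed to 0.745 and 1.70 FPKM, with Epx and Mcpt4 at 0 in both, and the 6 mesothelial and stromal markers to 338 and 307 FPKM, with none at 0. Dcn carried this last sum at 251 and 248 FPKM, while the collagen genes Col1a1 (15.98 and 3.63 FPKM, 1.87) and Col3a1 (22.9 and 9.54 FPKM, 1.18) were over 2-fold higher in the knockout-labelled library. The mesothelial genes went both ways. Msln (2.77 and 4.32 FPKM, -0.50) and Krt19 (12.9 and 16.2 FPKM, -0.31) were lower, and Upk3b (32.6 and 25.4 FPKM, 0.35) was higher. The part of B cells and stromal cells in the class I values was not tested, and in bulk RNA fewer cells of a type and less RNA per cell cannot be told apart.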

How the data were processed

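Each library has 1 FPKM value per Ensembl gene, as the authors deposited it. Tools and builds in the submitters' processing notes are StringTie 1.3.0, HISAT2 2.0.4, edgeR, mm10 and GRCm38.p4; the sources used here do not give their roles, the annotation or the handling of fragments that fit several genes. FPKM depends on the length and library size used, so abundant genes and RNA fragmentation move all values.

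Symbols, positions, lengths and GC content came from GENCODE M21 (GRCm38), which named 34267 of 34745 IDs; the IDs of 17 repeated symbols were summed. Depth was estimated from genes with 1 transcript: FPKM times length was a whole multiple of 1 step, to within 0.02 fragments, for 92.6% of the 1518 under 20 fragments in the knockout-labelled library and 92.2% of 1456 in the wild-type library. Fragments of other genes use the longest transcript and are approximate, as are the intervals, which also leave out PCR duplication. Intervals of the immunoproteasome share use a Poisson error carried through the ratio. The trend in length and GC content was removed as the medians of 20 bins of each.

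The alternatives were a pseudocount of 0.1 or 5 in place of 1, 3 scalings, a floor of 5 FPKM or none, trend removal, protein-coding genes only, and each subunit pair alone. Trend removal by median transcript length and the core GAANNGAAA were added after seeing the data. The calculations were tested on simulated data. The text names all members, their constitutive partners, in each list at most 4 genes with the most extreme ratios and the genes between Psmb9 and Tap2. Erap1, Irf1, Ciita, Rfx5, H2-Ab1, H2-Aa, H2-Eb1, Ring1, H2-Ke6, Vps52, the single markers, Ifng and the overlapping genes were chosen outside that rule. Members and lists were chosen with earlier results of these data known. Python 3.11.15, scipy 1.17.1, pandas 2.3.3 and Biopython 1.88 were used.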

Additional observations from a re-analysis of the deposited data

How the results depend on the processing

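No paired analysis was possible because each group had 1 library; for the same reason no replicate could be left out. Under all 10 alternative settings Psmb8, Psmb9 and Psmb10 stayed below 0 (up to -0.27, -0.09 and -0.39) and Tap1 and Tapbp above it. Pseudocounts, floors and the restriction to protein-coding genes cannot move a gene across 0. Only the 3 scalings and the trend removals could have done so. H2-K1 and Nlrc5 turned below 0 in 1 setting each, H2-D1 in 3 and B2m above 0 in 1, and Tap2 lay above 0 in 2. The count of members past 1.5-fold was 1 (Psmb10) in place of 0 with scaling to a median of 0, with equal upper quartiles and with the trend removed by median transcript length. The members' median was -0.10 with scaling to a median of 0, -0.12 with equal upper quartiles, 0.11 with equal totals and -0.039 with the trend removed. In these 4 settings the constitutive catalytic subunits had medians of -0.33, -0.34, -0.11 and -0.091 (-0.28 with the median transcript length), the other 20S subunits -0.36, -0.37, -0.14 and -0.15, and the interferon receptors and ligands 0.049, 0.036, 0.26 and 0.015 (-0.035 with the median transcript length). Loading, trimming and chaperone genes had medians of -0.0038 (scaled to a median of 0), -0.015 (upper quartiles), 0.21 (equal totals), -0.011 (trend removed) and 0.094 (trend removed by median transcript length). In the first 4 of these settings the proteasome activator and assembly genes had medians of -0.095, -0.11, 0.087 and -0.046 (-0.21 with a floor of 5 FPKM), the promoter module and interferon regulators -0.026, -0.034, 0.18 and 0.013, and the other class I genes -0.16, -0.18, 0.020 and -0.16. Taken alone, the Psmb8, Psmb9 and Psmb10 pairs gave immunoproteasome shares of 36.1%, 6.55% and 77.8% in the knockout-labelled library and 39.0%, 6.52% and 80.6% in the wild-type library. With median transcript lengths the interval excluded 0 for 8 members in place of 9. Apart from the trend removal and the subunit pairs, whose construction shows it, and the scalings, which shift all genes alike, the cause of a move was not tested. Without a second library per group, ratios of this size could not be compared with variation between animals.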
